A study of Mus musculus with 2 samples.

Results

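Irf8, Irf4, Batf3, Zbtb46, Id2, Tcf4, Spib and Klf4 encode transcription factors known for their roles in forming dendritic cells and their near relatives. These 8 genes were taken by name from the 24510 genes of a table of unique molecule counts per cell. They were read in 6 classes of cells that were gated on the raw counts of other genes. The classes were conventional dendritic cells of type 1 (cDC1) and type 2 (cDC2), CCR7 dendritic cells, plasmacytoid dendritic cells, monocytes and B cells.

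The cells were leukocytes sorted for CD45 from subcutaneous tumours of B16F10, a transplantable pigmented melanoma line of C57BL/6 mice. The tumours grew from wildtype B16F10 cells, from cells with a Tyr knockout or from cells with an Oca2 knockout, each of these 3 genotypes in 3 female C57BL/6 mice. The knockouts were in the injected tumour cells, the mice of all groups were described only as C57/BL6, and no age was given. Cells of each genotype carried 1 sample tag, so the mice of a genotype were pooled under it, and all cells went through a single BD Rhapsody whole transcriptome capture. No label ties a tag (8, 9 or 10) to a genotype. The tags are therefore given as 3 samples of unnamed genotype, with no comparison of genotypes and no test, and the spread over tags includes any effect of genotype. Intervals are exact 95% Poisson intervals for levels and exact 95% Clopper-Pearson intervals for shares of cells, and both cover counting error only.

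Dendritic cells arise from bone marrow progenitors under the control of a small set of transcription factors that work in combination. IRF8 and BATF3 are known for the cDC1 fate, IRF4 and KLF4 for parts of the cDC2 lineage, and ZBTB46 marks the conventional dendritic lineage as opposed to monocytes. TCF4, a basic helix-loop-helix factor also called E2-2, and the ETS factor SPI-B are known for the plasmacytoid fate, while ID2 binds E proteins such as TCF4 and blocks their binding to DNA.

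Of 13090 cells with 1 tag, 10491 passed a filter of 200 or more genes and no more than 25% mitochondrial molecules, and 1330 of these (12.7%) fell into the 6 classes. Tags 8, 9 and 10 gave 35, 36 and 30 cDC1, 33, 36 and 34 cDC2, and 95, 61 and 76 CCR7 dendritic cells. They gave 30, 28 and 21 plasmacytoid cells, 190, 199 and 221 monocytes, and 125, 43 and 37 B cells. Depth differed between classes, with a median of 11499 molecules in a cDC1 and between 5069 and 6169 in a cDC2, CCR7 dendritic cell, plasmacytoid cell or monocyte. A B cell had a median of 2240 molecules. No cell passed the gates of 2 classes, but their limits excluded one another, so none could.

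Lists of 8 markers that no gate used were each at their highest summed level in the class they belong to. The lists were chosen with earlier results of these data known, so they are not an independent check of the classes. Nearly all of these markers return in the lists of the class comparisons. The cDC1 list summed to 3847 to 4123 CPM (molecules of a gene per 1000000 molecules of a class and tag) in cDC1 and to at most 893 CPM elsewhere. The cDC2 gate was the least distinct: its list summed to 1601 to 2305 CPM there and to 1189 to 1367 CPM in plasmacytoid cells. All 8 genes of the monocyte list were found in the cDC2 gate, with a sum of 4950 to 5396 CPM against 13806 to 16392 CPM in monocytes, and Flt3, a receptor of dendritic progenitors, was at 69.4 CPM there against 235.8 CPM in cDC1 and 1.57 CPM in monocytes. Plasmacytoid cells held 3 of the 8 B cell markers, at 1134 to 1399 CPM in sum, nearly all of it Ighm (1220.7 CPM over all tags). Of 2 plasma cell genes, Jchain was at 0 in both them and B cells, while Mzb1 was at 52.2 to 153 CPM in plasmacytoid cells and at 141 to 172 CPM in B cells. The monocyte list summed to 5908 to 8699 CPM in plasmacytoid cells, with all 8 genes found and Lyz2 at 754, 3413 and 1253 CPM in tags 8, 9 and 10. They also held the 3 T cell markers at 334 to 459 CPM, mostly Cd4 (309.9 CPM over all tags), against 733 to 816 CPM in T cells, and the 3 neutrophil markers at 20.0 to 513 CPM. The part of these markers in the results for plasmacytoid cells and cDC2 was not tested. The CCR7 gate held 2 cells rich in melanoma molecules, in tags 9 and 10, with 74747 and 74892 molecules. The summed level of Pmel, Dct and Mlana in that gate was 33.3 CPM in tag 8, 2752 CPM in tag 9 and 1599 CPM in tag 10. Calls that change without these cells are given both ways. Without them Irf8 in that gate was at 1014 CPM in tag 9 and 1114 CPM in tag 10 instead of 844 and 967 CPM, and Id2 at 2434 and 2390.03 CPM instead of 2103 and 2091 CPM.

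**Figure D1:**
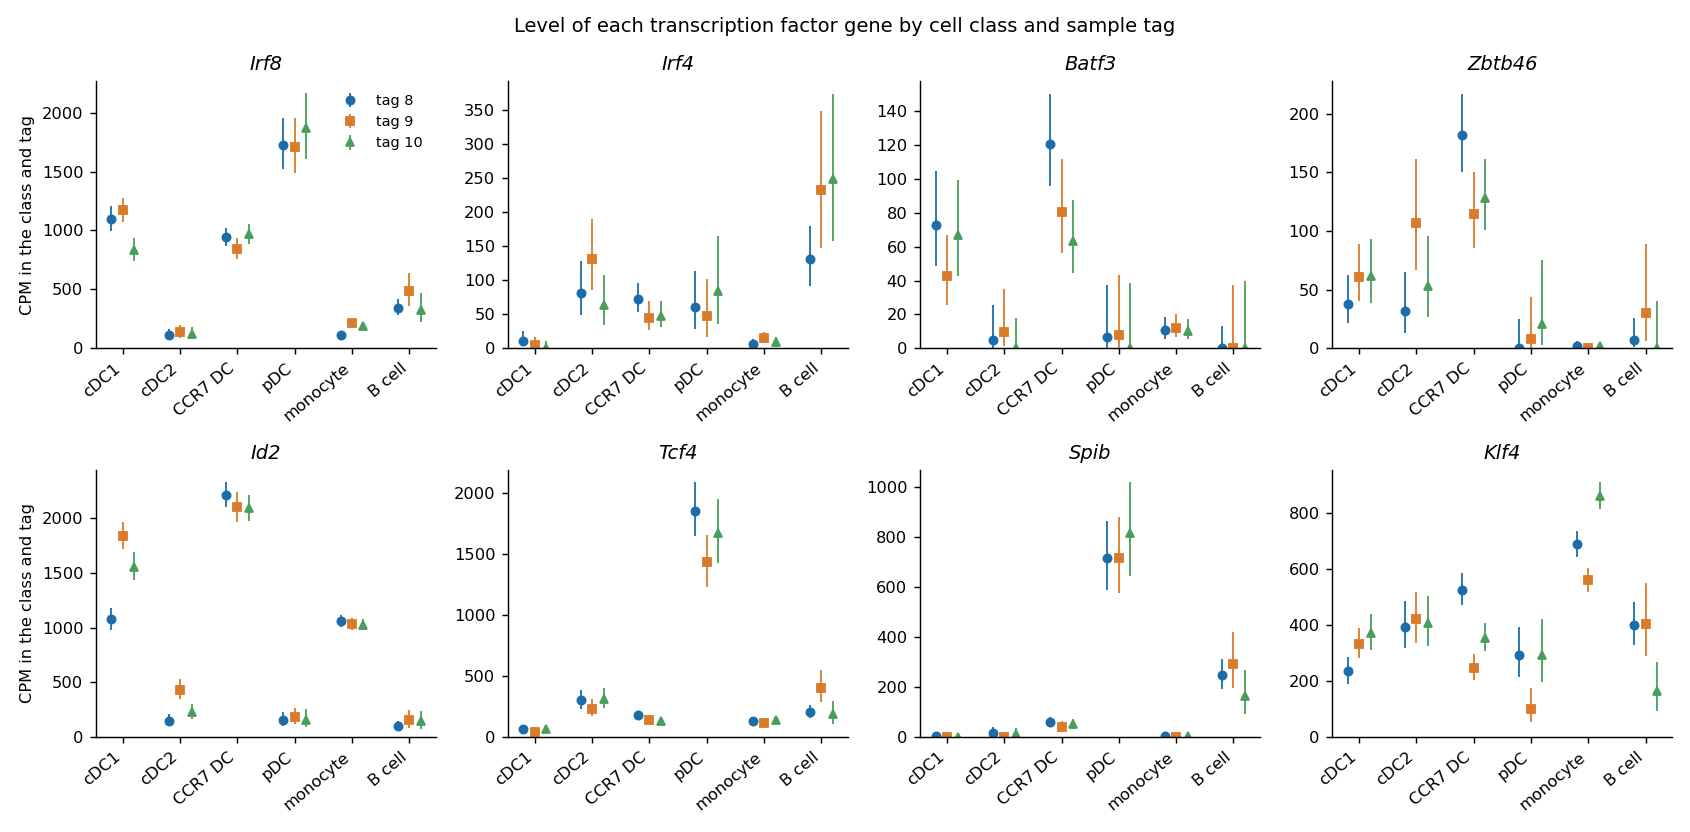
Level of each gene in CPM (vertical axes, each from 0) in the 6 cell classes, with 1 point for each sample tag and its exact 95% Poisson interval. Irf8, Tcf4 and Spib were highest in plasmacytoid cells (pDC), Irf4 in B cells, Batf3, Zbtb46 and Id2 in CCR7 dendritic cells and Klf4 in monocytes, by the median over tags.

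Irf8 was highest in plasmacytoid cells, followed by cDC1 and CCR7 dendritic cells, and was low in cDC2 and monocytes. In plasmacytoid cells of tags 8, 9 and 10 Irf8 was at 1727, 1710.2 and 1869 CPM. It was at 1096, 1174 and 831 CPM in cDC1 and at 940.2, 844 and 967 CPM in CCR7 dendritic cells, and these 2 ranges overlapped. B cells came next, at 343, 485 and 325 CPM, apart from the classes above and below. Monocytes were at 114, 217 and 187 CPM and cDC2 at 109, 135 and 121 CPM, with overlapping ranges. T cells, read as a reference, held 427, 576 and 449 CPM and neutrophils, a second reference, 43.7, 52.5 and 42.6 CPM. The gates of these references set no limit on Ccr7, Fscn1 or Cd209a, and a single T cell held up to 60 molecules of Irf8. Whether doublets with dendritic cells entered them was not tested. A molecule of Irf8 was found in 98 of 101 cDC1, 62 of 79 plasmacytoid cells and 171 of 232 CCR7 dendritic cells.

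The 250 bases before the RefSeq start of Irf8 and of Spib are printed because Irf8 was high in both plasmacytoid cells and cDC1, while Spib was high in the former and near 0 in the latter. RefSeq windows were found for 7 of the 8 genes. Both windows are on GRCm38.p6, Irf8 at chr8:120736108-120736357 on the plus strand and Spib at chr7:44532072-44532321 on the minus strand, and both are written 5′ to 3′ in the direction of the gene. Capitals mark matches to TTCNNNGAA, the letters of a STAT site, which read the same on both strands.
Irf8: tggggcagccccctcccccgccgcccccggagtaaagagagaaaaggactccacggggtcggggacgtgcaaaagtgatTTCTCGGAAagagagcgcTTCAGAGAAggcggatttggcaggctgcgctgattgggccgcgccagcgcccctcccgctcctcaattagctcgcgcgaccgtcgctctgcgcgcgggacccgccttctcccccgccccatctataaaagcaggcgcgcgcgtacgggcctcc
Spib: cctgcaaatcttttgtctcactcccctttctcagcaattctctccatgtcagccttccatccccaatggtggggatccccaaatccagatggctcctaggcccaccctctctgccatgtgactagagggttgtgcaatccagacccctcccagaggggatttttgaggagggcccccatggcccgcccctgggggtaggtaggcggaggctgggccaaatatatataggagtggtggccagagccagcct
The Irf8 window held 2 matches, which begin 171 and 153 bases before the start, and the Spib window held none. Among the windows of the other genes, that of Batf3 held 1 match and those of Zbtb46, Klf4, Id2 and Irf4 held none. Of 32851 mouse promoters of the same length, 7.02% held at least 1 match and 0.317% held 2 or more. The letters of an ETS and IRF composite site, an interferon-stimulated response site and an AP-1 site were also searched, with 0 matches in both windows. The E-box CANNTG, the type of site that TCF4 and its relatives bind, also reads the same on both strands. It was found 2 times in the Spib window and not in the Irf8 window. The windows of Zbtb46, Batf3, Klf4 and Id2 held 5, 2, 2 and 1 E-boxes, and that of Irf4 held none. Of all promoters, 66.2% hold at least 1 and 31.8% hold 2 or more. RefSeq lists a second Irf8 start, at whose window, chr8:120738389-120738638, the counts were reversed, with no STAT match and 2 E-boxes. That window is not printed, and the molecule counts do not tell the starts apart. These are matches of letters and not measured sites. Irf8 (ENSMUSG00000041515.10) lies at 120736358 to 120756694 of chromosome 8 and Spib at 44525993 to 44532071 of chromosome 7 in GENCODE vM21 on GRCm38, the source of the positions given for other genes.

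Irf4 (chr13:30749226-30766976), the relative of Irf8 that is also known from activated B cells and plasma cells, had another order of classes. It was highest in B cells, at 131, 232 and 249 CPM in tags 8, 9 and 10. cDC2 held 81.5, 130.4 and 63.1 CPM, plasmacytoid cells 60.0, 46.6 and 83.5 CPM and CCR7 dendritic cells 72.6, 44.8 and 47.5 CPM. The ranges of neighbours among these 3 classes overlapped. Monocytes were lower, at 6.53, 14.6 and 9.47 CPM. In cDC1 only 6 molecules of Irf4 were found in 101 cells, at 10.1 CPM in tag 8, 4.51 CPM in tag 9 and 0 in tag 10, where 3 molecules would have been 8.37 CPM. Neutrophils, with 6 molecules (5.18 CPM over all tags), were at a similar level, while T cells held 24.4 to 34.5 CPM.

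Batf3 (chr1:191097847-191108945), the AP-1 family partner that works with IRF8 in cDC1, was found in cDC1 and CCR7 dendritic cells. Its level in cDC1 was 72.9, 42.8 and 67.0 CPM in tags 8, 9 and 10, and in CCR7 dendritic cells 121, 80.6 and 63.3 CPM. The 2 ranges overlapped. Monocytes were at 10.6, 12.2 and 10.2 CPM, below every tag of both classes. Over all tags 3 molecules were found in cDC2 and 2 in plasmacytoid cells. B cells had 0 of 474348 molecules, which at 3 counts allows a level of up to 6.32 CPM (7.78 CPM by the Poisson interval). A molecule was found in 48 of 101 cDC1 and 86 of 232 CCR7 dendritic cells. In T cells, the reference with the most molecules, Batf3 was at 1.40 to 6.97 CPM.

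Zbtb46 (chr2:181387762-181459426), a zinc finger factor used as a mark of conventional dendritic cells, was highest in CCR7 dendritic cells, at 181, 114 and 128 CPM. cDC1 held 37.7, 60.8 and 61.4 CPM and cDC2 31.7, 106 and 53.4 CPM, with overlapping ranges. CCR7 dendritic cells, cDC1 and cDC2 lay above the other 3 classes in every tag. Monocytes held 4 molecules in 610 cells (1.04 CPM over all tags, 0.285 to 2.67), plasmacytoid cells 3 molecules and B cells 5. T cells were at 16.4 to 21.6 CPM, above monocytes in every tag. Without the 2 cells rich in melanoma molecules the level in CCR7 dendritic cells over all tags was 159 CPM instead of 146 CPM.

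Id2 (chr12:25093799-25097140) split the classes into a high and a low group. CCR7 dendritic cells were highest, at 2216, 2103 and 2091 CPM, and cDC1 followed at 1076, 1841 and 1559 CPM. Monocytes held 1059, 1033 and 1028 CPM, just below the lowest tag of cDC1. The low group was cDC2 at 149, 429.9 and 228 CPM, plasmacytoid cells at 153, 179 and 157 CPM, and B cells at 102, 151 and 141 CPM. The ranges of cDC2 and plasmacytoid cells overlapped, and cDC2 also overlapped B cells. Id2 was not particular to myeloid classes, since T cells held 1547 to 1782 CPM and neutrophils 545 to 671 CPM.

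Tcf4 was highest in plasmacytoid cells, at 1854, 1430.3 and 1671 CPM in tags 8, 9 and 10. cDC2 held 299, 232 and 310.5 CPM and B cells 201, 404 and 184 CPM, with overlapping ranges. CCR7 dendritic cells were at 177, 141 and 127 CPM and monocytes at 129.9, 114 and 138 CPM, which overlapped as well. cDC1 were lowest, at 67.9, 38.3 and 61.4 CPM. A molecule of Tcf4 was found in 65 of 79 plasmacytoid cells and in 33 of 101 cDC1, although a cDC1 was sequenced more deeply. T cells and neutrophils were at 32.1 to 43.1 and 32.8 to 55.5 CPM, so the level in cDC1 was close to that of the references.

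Spib (ENSMUSG00000008193.13) was high in plasmacytoid cells and near 0 in cDC1, cDC2 and monocytes. Plasmacytoid cells held 714, 715 and 814 CPM and B cells, where SPI-B is also known to act, 247, 293 and 163 CPM. CCR7 dendritic cells were lower but above 0 in every tag, at 58.9, 40.3 and 51.0 CPM. Over all tags 5 molecules were found in cDC2, 5 in monocytes and 2 in cDC1. The levels in cDC1 (1.67 CPM over all tags) and monocytes (1.31 CPM) were near those of the references, at 2.59 CPM in T cells and 1.73 CPM in neutrophils. The value in cDC2 was higher, at 7.89 CPM, with an interval of 2.56 to 18.4. In CCR7 dendritic cells the 86 molecules came from 46 of 232 cells, at most 6 from 1 cell. B cell markers were low in that gate, with a summed level of 12.3 to 46.9 CPM against 7155 to 7404 CPM in B cells.

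Klf4 (chr4:55527143-55532466), a zinc finger factor of monocytes and of some cDC2, was found in every class. Monocytes were highest, at 688, 559 and 860.4 CPM, above all other classes. Among the remaining 5 classes the ranges of neighbours in the order of medians overlapped, while cDC2 lay above every tag of cDC1 and of plasmacytoid cells. These classes held 394, 420.3 and 407 CPM in cDC2, 399, 404 and 163 CPM in B cells, 526, 246 and 353 CPM in CCR7 dendritic cells, 234, 331 and 371 CPM in cDC1, and 293, 101 and 292 CPM in plasmacytoid cells. Klf4 is also an immediate-early gene. A list of 8 such genes and heat shock genes (Fos, Jun, Junb, Egr1, Dusp1, Ier2, Hspa1a and Hspa1b), chosen after values were seen, summed to 3951, 4223 and 7649 CPM in monocytes, 4284, 4696 and 7267 CPM in cDC2 and 2001, 2775 and 2746 CPM in plasmacytoid cells. In cDC1, CCR7 dendritic cells and B cells it summed to between 2081 and 3603 CPM. The part of this list in the level of Klf4 was not tested.

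Some levels differed between tags of 1 class by more than counting error, among the 5 classes with at least 30 cells in each tag. Id2 in cDC1 was at 1076 CPM (976 to 1183) in tag 8 and 1841 CPM (1717 to 1971) in tag 9. Irf8 in cDC1 was at 831 CPM (739.6 to 931) in tag 10 and 1174 CPM (1075 to 1279) in tag 9. Klf4 in CCR7 dendritic cells was at 526 CPM (472 to 584) in tag 8 and 246 CPM (202 to 297) in tag 9, or 274 CPM in tag 9 without its cell rich in melanoma molecules. The intervals take molecules as independent and do not cover which cells were sampled. A single cell gave 82 of the 817 Id2 and another 59 of the 521 Irf8 molecules in cDC1 of tag 9 at the highest. In CCR7 dendritic cells of tag 8, 1 cell gave 64 of the 348 Klf4 molecules. Such differences between tags widen the ranges of levels given above, while the class ratios below were taken within each tag. Genotype, mouse, handling and the sampling of few cells cannot be told apart in these differences.

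The classes were next compared in pairs, tag by tag, on the log2 scale of the CPM ratio. A gene entered a comparison when the 2 classes together held 30 or more of its molecules, and a count of 0 was replaced by 3 counts. It was called when all 3 tags showed a ratio of 2-fold or more that pointed the same way. A ratio that rests on such a 0 can understate the difference. Where 3 counts exceed the level of the other class, it can also point to the class without a molecule. Batf3 in tag 10 had 0 molecules in cDC2 and a log2 ratio of 0.51 against monocytes. The gates used other genes, so the 8 genes took no part in making the classes.

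**Figure D2:**
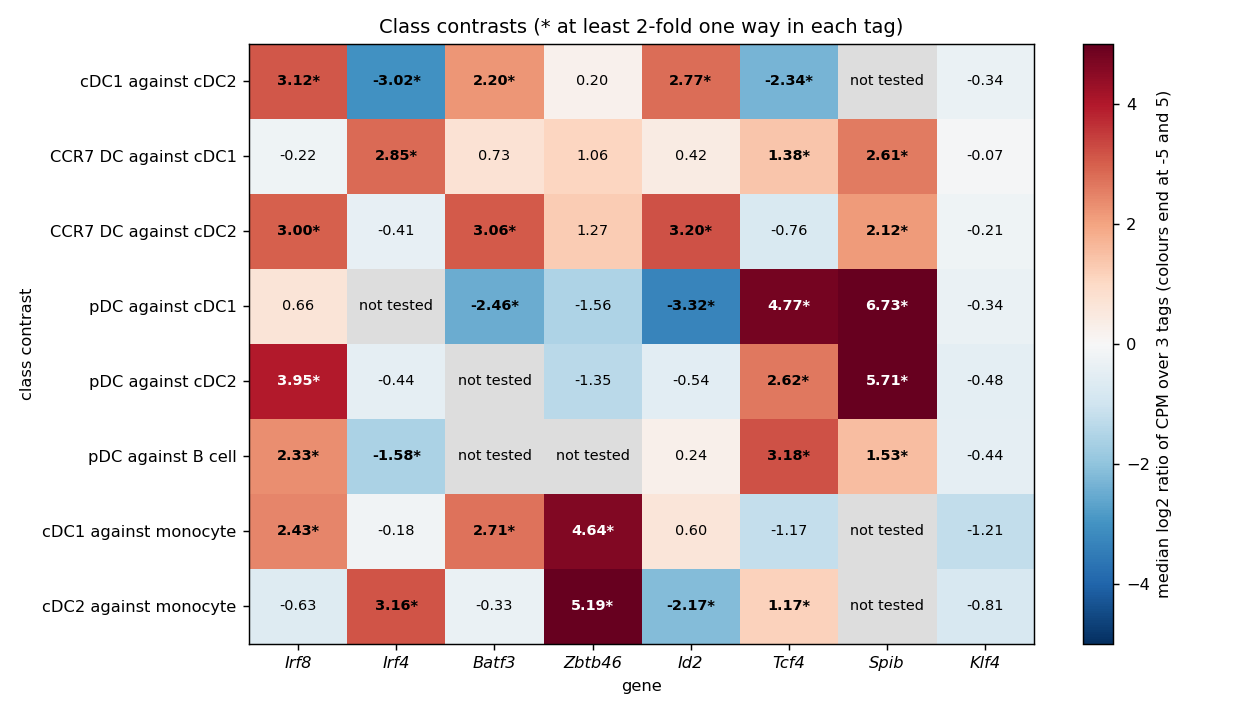
Median over 3 tags of the log2 ratio of CPM (colour and printed value, red for higher in the first class) for the 8 genes (columns) in the 8 class contrasts (rows). An asterisk marks a gene called at least 2-fold in one direction in each tag, and grey marks pairs with fewer than 30 molecules. cDC1 against cDC2 has 5 calls in 2 directions, while Klf4 has none.

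cDC1 held more Irf8, Id2 and Batf3 than cDC2 and less Irf4 and Tcf4. Of 7 genes with enough molecules, 3 were called higher in cDC1, where 3.77% of all 6162 genes were called higher, and 2 lower, against 3.8% of all genes. In either direction 7.56% of all genes were called. Irf8 was higher by a median log2 ratio of 3.12 (2.78 to 3.33 over tags) and Id2 by 2.77 (2.10 to 2.85). Batf3 had 72 molecules in cDC1 and 3 in cDC2, a ratio of 12.7 with a counting interval of 4.17 to 62.9. Irf4 had a median log2 ratio of -3.02 (-4.86 to -2.91), with 6 molecules against 58, and Tcf4 one of -2.34 (-2.60 to -2.14). Zbtb46 (0.20, -0.80 to 0.25) and Klf4 (-0.34, -0.75 to -0.14) were not called. In cells thinned to 1000 molecules the Tcf4 ratio was -1.40 and was no longer called. All 12 genes of a type 1 dendritic list were called higher in cDC1, with a median log2 ratio of 2.81 against 0.03 for all genes. They included Rab7b (5.06), Itgae (4.72) and Cd36 (3.48). Of 11 tested genes of a type 2 list, 7 were called lower, with Cd7 (-6.08) and Clec10a (-4.98) among them, and none higher. Among 26 tested genes of a list of other lineage transcription factors, Klf2 (2.45) and Mycl (2.42), a MYC family factor known from cDC1, were called higher. Zeb2 (-2.28), Bcl11a (-2.06) and Cebpb (-1.72) were called lower.

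CCR7 dendritic cells differed from cDC1 by more Irf4, Tcf4 and Spib, with Irf8, Id2 and Batf3 not called. All 8 genes were tested, 3 were called higher against a background of 8.43% of 7508 genes, and 0 lower against 6.79% (15.2% in either direction). Irf4 had a median log2 ratio of 2.85 (2.50 to 3.31) and Tcf4 one of 1.38 (1.04 to 1.88). Spib had 86 molecules against 2, a ratio of 30.8 (8.26 to 258). Irf8 was at -0.22 (-0.48 to 0.22), Batf3 at 0.73 (-0.08 to 0.91), Id2 at 0.42 (0.19 to 1.04) and Klf4 at -0.07 (-0.43 to 1.17). Zbtb46 was at 1.06 (0.91 to 2.27), and was not called with all cells. It was called without the cells rich in melanoma molecules (1.25), without tag 9 (1.67), with the mean of CPM over cells (1.25) and without the deepest 5% of cells (1.42). The Tcf4 call was lost in thinned cells (0.53) and with the mean of CPM over cells (0.84). Of a maturation list, 10 of 12 genes were called higher and none lower, with a median of 4.05 against -0.08 for all genes. They were led by Socs2 (7.85), Cacnb3 (7.52) and Cd200 (6.73). Of the type 1 list, 11 of 12 were called lower, with Naaa at -4.33 and Tlr3 at -4.25. Among other lineage factors 4 of 26 were called higher, led by Relb (3.40), an NF-kappaB subunit of maturing dendritic cells, Nr4a3 (2.34) and Runx2 (1.64). Mycl (-4.08) and Rbpj (-1.48), the DNA-binding partner of Notch, were called lower.

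Against cDC2, the same CCR7 dendritic cells held more Irf8, Id2, Batf3 and Spib. All 8 genes were tested, 4 were called higher against 7.15% of 6881 genes, and 0 lower against 6.66% (13.8% in either direction). Irf8 was higher by 3.00 (2.64 to 3.11) and Id2 by 3.20 (2.29 to 3.89) on the log2 scale. Batf3 had 152 molecules against 3, a ratio of 19.2 (6.43 to 93.9), and Spib had a median log2 ratio of 2.12 (1.48 to 2.39). Zbtb46 (1.27, 0.10 to 2.52), Irf4 (-0.41, -1.54 to -0.17), Tcf4 (-0.76, -1.29 to -0.72) and Klf4 (-0.21, -0.77 to 0.42) were not called. Without tag 9 Zbtb46 was called, at 1.89. The maturation list again had 10 of 12 genes called higher, led by Ccl22 (6.39), Cacnb3 (6.33) and Tbc1d4 (6.24). Relb (2.52) and Nr4a3 (1.49) were called higher and 5 of 26 other lineage factors lower, with Bcl11a at -3.92, Cebpb at -2.36 and Batf at -2.05. The 2 comparisons share the CCR7 dendritic cells, and the comparisons of cDC1 and of cDC2 share those classes in turn.

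Plasmacytoid cells exceeded cDC1 in Tcf4 and Spib and fell below them in Id2 and Batf3. Of 7 tested genes 2 were called higher, against 6.93% of 5991 genes, and 2 lower, against 4.51% (11.4% in either direction). Tcf4 had a median log2 ratio of 4.77 (4.77 to 5.22). Spib had 277 molecules in 79 cells against 2 in 101 cDC1, a ratio of 444 with a counting interval of 122 to 3684. Id2 had a median log2 ratio of -3.32 (-3.36 to -2.81), and Batf3 had 2 molecules against 72, a ratio of 0.0890 (0.0106 to 0.334). The Batf3 call was lost, at -2.11, with every gate minimum raised by 1 molecule. Irf8 (0.66, 0.54 to 1.17) and Klf4 (-0.34, -1.71 to 0.33) were not called. Nor was Zbtb46, with 3 molecules against 64, a ratio of 0.150 (0.0302 to 0.459). In tag 8 its count of 0 in plasmacytoid cells was set to 20.0 CPM, against 37.7 CPM in cDC1. A 2-fold ratio was thus out of reach in that tag at these gates and this scaling. Zbtb46 was called lower without tag 8 (-2.26), under TMM scaling (-1.86), with looser limits on other cell types (-1.89) and with the mean of CPM over cells (-2.18). All 11 tested genes of a plasmacytoid list were called higher, with a median of 4.87 against 0.06 for all genes, led by Ly6d (7.00), Cox6a2 (6.74) and Klk1 (6.58). Among 24 tested lineage factors, 5 were called higher, led by Runx2 (4.60), Zeb2 (3.01) and Bcl11a (2.83), and Rbpj (-1.89), Spi1 (-1.48) and Nfil3 (-1.30) lower. Under TMM scaling the share of higher calls among all called genes moved from 60.6% to 44.2%.

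Compared with cDC2, plasmacytoid cells held more Irf8, Tcf4 and Spib. Of 7 tested genes 3 were called higher, against 6.12% of 4772 genes, and 0 lower, against 3.98% (10.1% in either direction). The median log2 ratios were 3.95 (3.66 to 3.99) for Irf8, 2.62 (2.43 to 2.63) for Tcf4 and 5.71 (5.62 to 6.39) for Spib, which had 277 molecules against 5. Id2 was at -0.54 (-1.27 to 0.04), Irf4 at -0.44 (-1.48 to 0.41) and Klf4 at -0.48 (-2.06 to -0.43), none of them called. Zbtb46 had 3 molecules against 40, a ratio of 0.127 (0.0251 to 0.399), and was called lower only without tag 8, at -2.56. In tag 8 its count of 0 in plasmacytoid cells was set to 20.0 CPM, against 31.7 CPM in cDC2, so 2-fold was out of reach there. The plasmacytoid list again had 11 of 11 tested genes called higher. Runx2 (2.19) and Tcf12 (2.10), another E protein, were called higher and Nfil3 (-1.29) and Spi1 (-1.26) lower. The share of higher calls among all called genes was 60.6% on CPM and 46.0% under TMM scaling.

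B cells share Spib, Irf8 and Tcf4 with plasmacytoid cells, and all 3 were at higher levels in the latter. Of 6 tested genes 3 were called higher in plasmacytoid cells, where 10.7% of 4557 genes were, and 1 lower, against 7.02% (17.8% in either direction). The median log2 ratios were 3.18 (1.82 to 3.20) for Tcf4, 2.33 (1.82 to 2.52) for Irf8 and 1.53 (1.29 to 2.32) for Spib. Irf4 was lower, at -1.58 (-2.32 to -1.12), but this call was lost in 5 alternatives and the ratio was -0.53 in thinned cells. Id2 was at 0.24 (0.15 to 0.58) and Klf4 at -0.44 (-1.998 to 0.85). All 12 genes of a B cell list were called lower in plasmacytoid cells, led by Ighd (-5.63), Ebf1 (-4.98) and Bank1 (-4.84), and 9 of 11 tested plasmacytoid genes higher. Runx2 (5.12), Etv6 (2.95) and Zeb2 (2.92) led the 4 of 23 lineage factors called higher. Klf2 (-3.90), Id3 (-2.81), an inhibitor of E proteins like ID2, and Pou2f2 (-1.90) led the 4 called lower.

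Monocytes, a class outside the dendritic lineage, were set against both conventional classes. cDC1 held more Irf8, Batf3 and Zbtb46, the 3 genes called higher of 7 tested, where 8.42% of 8221 genes were, and 0 were called lower, against 8.98% (17.4% in either direction). The median log2 ratios were 2.43 (2.15 to 3.26) for Irf8, 2.71 (1.81 to 2.78) for Batf3 and 4.64 (4.53 to 5.40) for Zbtb46, with 64 molecules in 101 cDC1 against 4 in 610 monocytes. The Batf3 call was lost with the mean of CPM over cells, at 2.55. Id2 was at 0.60 (0.02 to 0.83), Irf4 at -0.18 (-1.70 to 0.62), Tcf4 at -1.17 (-1.57 to -0.94) and Klf4 at -1.21 (-1.56 to -0.75). The Irf4 median was that of tag 10, where 0 molecules in cDC1 were set to 3 counts. Over all tags the Irf4 ratio was 0.491 (0.170 to 1.17). Tcf4 was called lower in 5 alternatives, namely TMM scaling (-1.52), raised gate minimums (-1.95), looser limits on other cell types (-1.18), without the deepest 5% of cells (-1.25) and without tag 8 (-1.37). Klf4 was called lower under TMM scaling (-1.56), in thinned cells (-1.33) and without tag 9 (-1.39). Of a monocyte list, 9 of 11 genes were called lower in cDC1, led by F13a1 (-5.72), Hp (-5.66) and Vcan (-3.87). Mycl (4.62) and Zfp366 (3.50), a zinc finger factor also named DC-SCRIPT, were called higher, and 6 of 29 lineage factors lower, led by Prdm1 (-4.42), Zeb2 (-3.98) and Id3 (-3.67). The share of higher calls among all called genes was 48.4% on CPM and 30.2% under TMM scaling.

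cDC2 differed from monocytes by more Irf4 and Zbtb46 and by less Id2. Of 7 tested genes 3 were called higher, against 3.91% of 7808 genes, and 1 lower, against 4.73% (8.63% in either direction). Irf4 had a median log2 ratio of 3.16 (2.74 to 3.64) and Zbtb46 one of 5.19 (4.28 to 5.45), with 40 molecules in 103 cDC2 against 4 in 610 monocytes. Id2 was lower, at -2.17 (-2.83 to -1.27). Tcf4 was called higher at 1.17 (1.03 to 1.20), close to the limit, and lost that call in 5 alternatives, with 0.76 under TMM scaling. Irf8 (-0.63, -0.68 to -0.07) and Klf4 (-0.81, -1.08 to -0.41) were not called, and Batf3 had 3 molecules against 42, a ratio of 0.432 (0.0856 to 1.35). Of the type 2 list, 7 of 11 tested genes were called higher, led by Cd7 (8.55), Flt3 (6.13) and Mgl2 (5.20), and 2 lower, while 6 of 11 monocyte genes were called lower, with Vcan (-4.83) and Hp (-3.90) among them. Bcl11a (3.998) was called higher, and Id3 (-3.15), Klf2 (-2.18) and Zeb2 (-2.09) led 4 of 27 lineage factors called lower. The share of higher calls moved from 45.3% on CPM to 19.9% under TMM scaling.

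**Figure D3:**
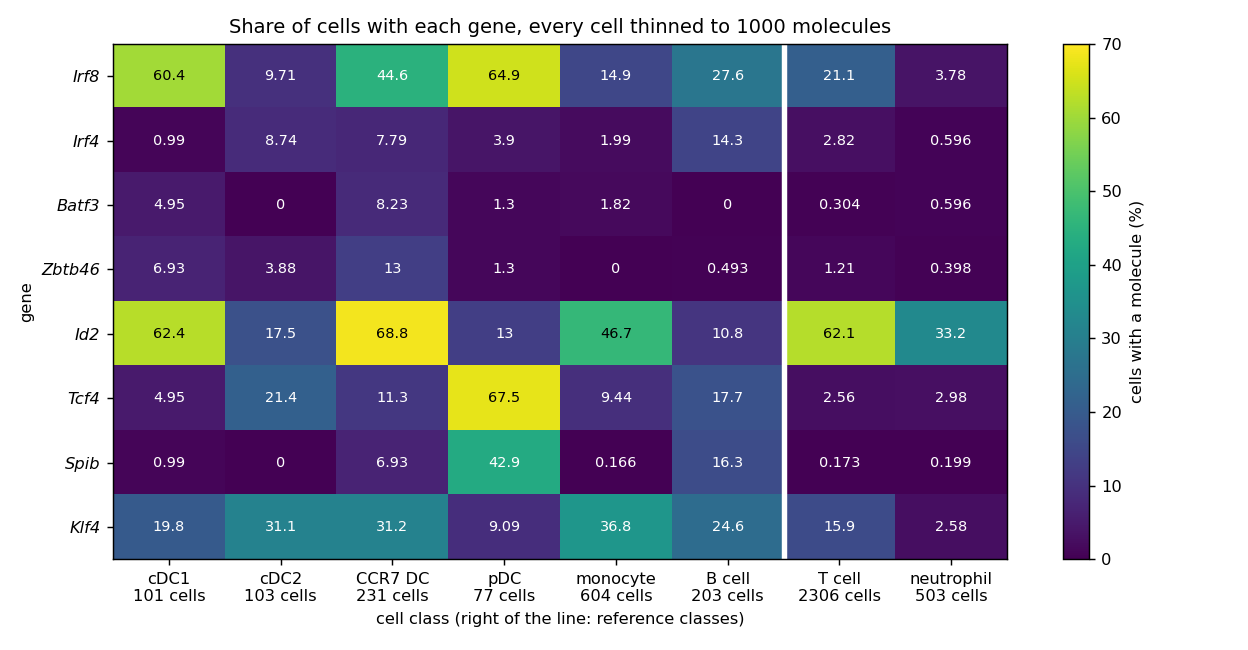
Share of cells with at least 1 molecule of each gene (rows; colour and printed value in percent) in the 6 classes and in 2 reference classes right of the line, after each cell was thinned to 1000 molecules and shallower cells were left out. Tcf4 was found in 67.5% of plasmacytoid cells and in 4.95% of cDC1, and Id2 in 12.99% and 62.4%.

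The share of cells with a molecule was read after every cell was thinned to 1000 molecules, which took the difference in depth away. Irf8 was then found in 64.9% of plasmacytoid cells (53.2 to 75.5), 60.4% of cDC1 (50.2 to 69.99), 44.6% of CCR7 dendritic cells (38.1 to 51.3) and 27.6% of B cells. Its share was 14.9% in monocytes and 9.71% in cDC2, between the 21.1% of T cells and the 3.78% of neutrophils. Without thinning these shares were 78.5%, 97.03%, 73.7%, 45.4%, 44.3% and 35.0% in the same order of classes, and 38.4% and 6.34% in the references. In percentage points the fall was largest in cDC1, the deepest class. Spib was found in 42.9% of thinned plasmacytoid cells (31.6 to 54.7), 16.3% of B cells (11.5 to 22.1) and 6.93% of CCR7 dendritic cells (4.01 to 11.004), against 0.173% of T cells and 0.199% of neutrophils. Batf3 and Zbtb46 were thin at this depth. Zbtb46 was found in 12.99% of CCR7 dendritic cells (8.94 to 18.02), 6.93% of cDC1 (2.83 to 13.8) and 3.88% of cDC2 (1.07 to 9.65), and in 0 of 604 monocytes, which at 3 cells allows a share of up to 0.497% (0.609% by the exact interval). Batf3 was found in 8.23% of CCR7 dendritic cells (5.03 to 12.6) and 4.95% of cDC1 (1.63 to 11.2), against 0.304% of T cells. In cDC2 it was found in 0 of 103 thinned cells, which at 3 cells allows a share of up to 2.91% (3.52% by the exact interval).

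**Figure D4:**
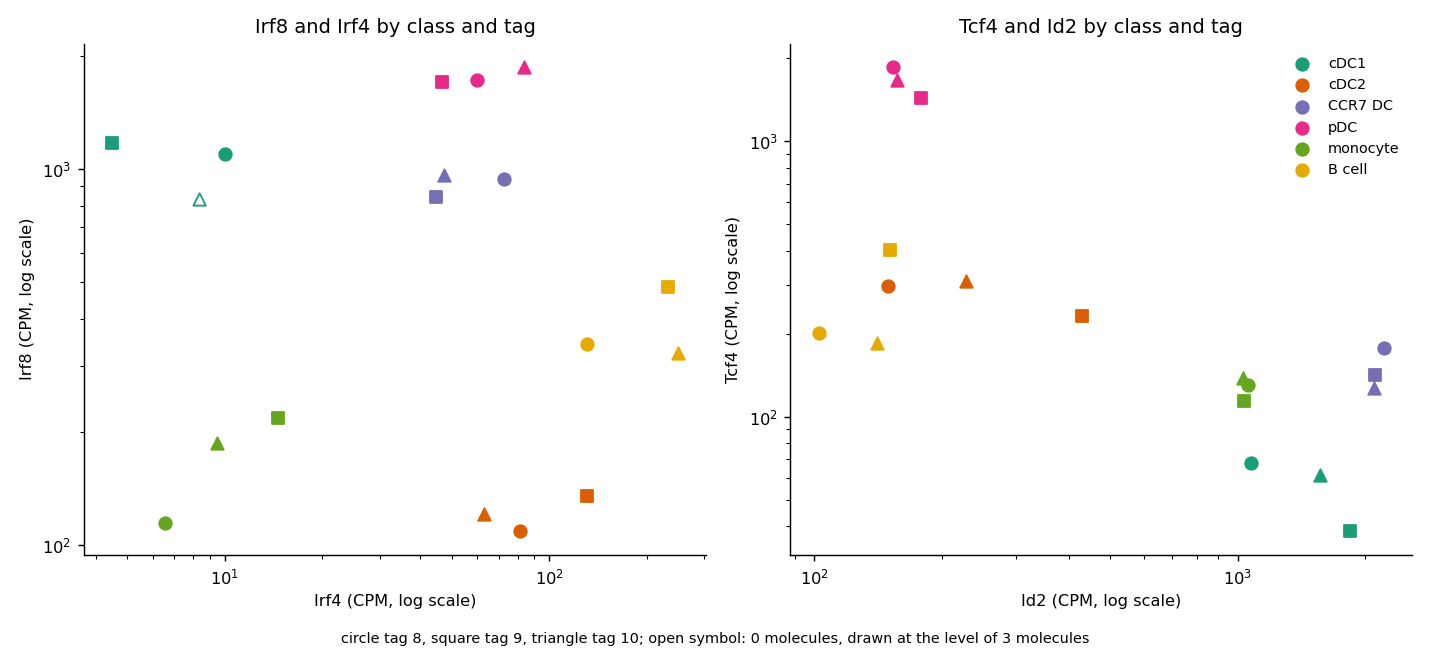
Level of Irf8 against Irf4 (left) and of Tcf4 against Id2 (right), in CPM on log axes, with 1 symbol for each class and tag. An open symbol had 0 molecules of a gene and is drawn at the level of 3 molecules. cDC1 lie at high Irf8 and low Irf4, and plasmacytoid cells (pDC) at high Tcf4 and low Id2.

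Over the 18 sums of a class and a tag, Id2 and Batf3 had the most similar patterns among the 8 genes, with a Pearson correlation of log2(CPM + 10) of 0.88. Tcf4 and Spib followed, at 0.81. The most opposite patterns were those of Tcf4 and Id2, at -0.71, and of Id2 and Irf4, at -0.68. Irf8 and Irf4 were at -0.09, with both held by plasmacytoid and CCR7 dendritic cells and little of either in monocytes. These values are descriptions. The 18 points share 6 classes and 1 library, and depth differs between the classes.

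Single cells with a pair of these genes were counted without thinning, so that the counts depend on depth. In cDC1, 95 of 101 cells held Irf8 without Irf4, 3 held both and 1 Irf4 alone. In CCR7 dendritic cells 137 of 232 held Irf8 alone, 34 both, 14 Irf4 alone and 47 neither. Irf4 was found in 19.9% of the CCR7 dendritic cells with Irf8 and in 23.0% of those without it. The 2 genes were thus found in the same cells of that class as well as in separate ones. In plasmacytoid cells 52 of 79 held both Tcf4 and Spib, 13 Tcf4 alone, 2 Spib alone and 12 neither. Id2 was found in 15 of the 65 plasmacytoid cells with Tcf4 (23.1%). Of the few plasmacytoid cells without Tcf4, 8 held Id2 (57.1%) and 6 did not. In thinned cells these shares were 7.69% with Tcf4 and 24% without it. By tag the thinned shares were 0% and 37.5% in tag 8, both 7.14% in tag 9, and 17.6% and 66.7% in tag 10. In CCR7 dendritic cells without thinning, 83 of the 92 cells with Tcf4 also held Id2, where Id2 was found in 211 of all 232. Irf8 and Batf3 were found together in 47 of 101 cDC1 and 72 of 232 CCR7 dendritic cells.

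The genes with the most similar pattern to each of the 8 were read over the same 18 sums among 7051 genes, leaving out gate genes and the 8 genes themselves. Irf8 was nearest to Guk1 (correlation 0.87), a guanylate kinase, and Herpud1 (0.86), a gene of the endoplasmic reticulum stress response. Irf4 was nearest to Pan3 (0.93) and to Foxp1 (0.91), a forkhead factor of B cells that was at 1117 CPM in B cells and 149 CPM in cDC1 over all tags. Batf3 was nearest to Sri and Tmsb4x (both 0.91). Zbtb46 was nearest to Cytip (0.91) and Zfp366 (0.89). Zfp366 was at 30.8 CPM in cDC1, 29.97 CPM in cDC2 and 45.9 CPM in CCR7 dendritic cells, with 0 molecules in the other 3 classes. Id2 was nearest to Marcks (0.93) and Rgs1 (0.92), Tcf4 to Panx1 (0.91) and Cd164 (0.90), and Spib to Calcoco1 and Blnk (both 0.92), the latter an adaptor of B cell receptor signalling at 267 CPM in plasmacytoid cells and 162 CPM in B cells. Klf4 had the weakest match, to Xaf1 (0.82) and Slc35f6 (0.80).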

How the data were processed

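The deposited counts are error-corrected unique molecules of each gene in each cell. Per the file headers they came from version 1.9.1 of the BD WTA Multiplex Rhapsody Analysis Pipeline, with GRCm38 as genome and GENCODE vM19 as annotation. GRCm39, the build of the submitters' processing notes, was not followed. Beside the counts, the authors deposited a tag call for each of 14899 cells. The 1448 multiplets and 361 undetermined cells were left out. This was the treatment of doublets, besides gates that limited markers of some other types. No caller was run for doublets within a tag. Tags named no genotype.

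Gates asked for 1 to 3 molecules of Xcr1 and Clec9a (cDC1), Cd209a (cDC2), Ccr7 and Fscn1 (CCR7) or Siglech and Ccr9 (plasmacytoid). Monocytes were asked for Ly6c2, Chil3 and Csf1r, and B cells for genes that include Cd79a and Ms4a1. Each gate limited genes of some other types only. None of the dendritic gates limited Ly6c2, Chil3 or Csf1r, and the CCR7 gate did not limit Xcr1, Clec9a or Cd209a. Cd209a was not limited in the cDC1 and plasmacytoid gates either. Molecules were summed per class and tag and scaled to 1000000. The 8 genes and all lists were chosen with earlier results of these data known. At most 3 called genes a direction were named from each list, the largest by median, though some are not reported here, and for each of the 8 genes the 2 of most similar pattern. Of 12 monocyte genes, Ly6a2 was not found by that name. Genotypes could not be tested, with 1 tag each, and classes were described by their ratios within tags, with no test over the 3 tags. Alternatives changed the gates, cell filters, scaling (TMM factors of edgeR 4.0.16 in R 4.3.3), depth, weighting of cells, minimum of molecules and the count set for 0, or left out each tag. Scripts ran in Python 3.11.15 with pandas 2.3.3, numpy 2.4.6 and scipy 1.17.1, and figures were drawn with matplotlib 3.10.9.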

Additional observations from a re-analysis of the deposited data

How the results depend on the processing

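Over 8 contrasts, 24 calls of a higher and 6 of a lower level were made for the 8 genes, and 24 of these 30 calls were kept in every one of 13 settings that tested them. No called ratio changed direction. Calls lost were those of Tcf4 (cDC1 against cDC2, CCR7 dendritic cells against cDC1, cDC2 against monocytes), Batf3 (plasmacytoid cells against cDC1, cDC1 against monocytes) and Irf4 (plasmacytoid against B cells), and 6 further ratios were called only under another setting. The cause was not tested, except that thinning leaves fewer molecules and that 2 tags are a weaker demand than 3. Leaving out a tag could lose a call only through the minimum of molecules, which left some ratios unread.

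In cells thinned to 1000 molecules the calls of the 8 genes were 13 higher and 3 lower, and 20 ratios had too few molecules to be read. Over all genes, 87 were then called instead of 466 in cDC1 against cDC2, 322 instead of 1143 in CCR7 dendritic cells against cDC1 and 329 instead of 950 against cDC2. The count was 158 instead of 685 in plasmacytoid cells against cDC1, 115 instead of 482 against cDC2 and 257 instead of 809 against B cells. It was 390 instead of 1430 in cDC1 against monocytes and 261 instead of 674 in cDC2 against monocytes. With no minimum of molecules 1588 genes were called in CCR7 dendritic cells against cDC2, 1444 in plasmacytoid cells against cDC1, 821 against cDC2, 2241 in cDC1 against monocytes and 2068 in cDC2 against monocytes. With at least 10 molecules the last was 1251. At such low minimums a 0 set to 3 counts can exceed the level of the deeper class. A gene can then be called higher in the class that lacked it, and such calls were not counted apart. TMM scaling moved the median log2 ratio of all genes from 0.15 to -0.19 in cDC1 against monocytes, from 0.15 to -0.25 in cDC2 against monocytes, from 0.06 to -0.20 in plasmacytoid cells against cDC1, from 0.05 to -0.16 against cDC2 and from -0.01 to 0.12 in CCR7 dendritic cells against cDC2. The setting without cells rich in melanoma molecules was chosen after seeing the data.

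Each ratio was taken between classes of 1 tag and so pairs them by tag, and no test over the 3 pairs was run. Depth limited Batf3, Zbtb46, Spib and Irf4 most: in plasmacytoid cells 3 molecules of a tag amount to 20.0 to 31.3 CPM, so lower levels rest on 1 or 2 molecules there.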

Other observations

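How many of the 8 genes a single cell showed differed between the classes. A cDC1 held molecules of a median of 4 of the 8 genes (1 to 6), a CCR7 dendritic cell of 4 (0 to 8), a plasmacytoid cell or monocyte of 3 and a cDC2 or B cell of 2. After every cell was thinned to 1000 molecules, none of the 8 genes was found in 6.93% of cDC1, 7.79% of plasmacytoid cells and 9.96% of CCR7 dendritic cells. The same was true of 24.3% of monocytes, 28.1% of B cells and 35.0% of cDC2, so more than 1 in 3 thinned cDC2 showed no molecule of any of these genes.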
